A study of Mus musculus with 3 samples.

Results

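A list of 10 genes by which fat cells are often recognised was followed across 3 expression arrays of mouse EWS/ATF1 sarcoma. They are Fabp4, Lpl, Adipoq, Plin1, Pparg, Cd36, Cidec, Lep, Cfd and Retn, taken as a list of symbols. Of these 10 genes, 9 had a named probe set, 1 each, among the 19938 genes named on the array. Cfd, the serine protease adipsin that fat cells secrete, is not analysed here. The arrays hold 1 sample per group. Per the labels, the array called control here carries RNA of cultured tumor cells given no doxycycline (0 microg/ml), and that called high doxycycline carries RNA of cultured cells 24 h after 0.2 microg/ml. By its label the third, called tumor, carries RNA of a tumor resected from a mouse with an inducible EWS/ATF1 transgene after 3 months of doxycycline. All 3 come from soft tissue sarcoma on a mixed C57/BL6, 129 and ICR background. The labels state neither the age of the animals, nor the promoter that drives the transgene, nor whether a culture is 1 clone. EWS/ATF1 is the fusion of the RNA-binding protein EWSR1 with the transcription factor ATF1 found in human clear cell sarcoma.

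Fat cells store fatty acids as triglyceride in a lipid droplet. Lipoprotein lipase frees fatty acids from circulating lipoproteins, CD36 takes them up and FABP4 binds them in the cytoplasm. Perilipin 1 coats the droplet and CIDEC helps droplets fuse. PPARG is the nuclear receptor that drives fat cell differentiation, and adiponectin, leptin, resistin and adipsin are secreted into the blood. Fabp4, Lpl, Cd36 and Pparg are also made by macrophages, Fabp4 and Cd36 by capillary endothelium, and Lpl and Cd36 by muscle, so that these 4 genes are less particular to fat cells than Adipoq, Lep and Plin1.

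Markers of macrophages, endothelium, muscle and matrix were far brighter on control than on the other two arrays, which goes against the labels of cultured cells and of tumor tissue. Summed over 12 macrophage genes, the intensity was 27775 for control, 2459 for high doxycycline and 1413 for tumor. Over 10 endothelial genes it was 11800, 2836 and 1926, over 10 skeletal muscle genes 29204, 2194 and 2352, and over 10 fibroblast and matrix genes 56827, 2534 and 3756. Directions below are therefore directions between labelled arrays. Whether each label stands on the right array was not tested, and if the labels were exchanged, differences between those arrays would belong to other groups. Since every group is a single array, there is no test of any difference, no p-value and no replicate error. Array, label and sample cannot be told apart. The internal measure used is how far probe sets of the same gene disagreed in their log2 difference. This disagreement does not measure variation between cultures or animals, and each measured member has 1 probe set. It was taken over probe sets that lay above the array median on the brighter array of a pair. Its median was 0.37 when high doxycycline was set against control, 0.38 when tumor was, and 0.055 between tumor and high doxycycline. It reached at least 1, the size called 2-fold here, for 19.9%, 21.0% and 0.77% of such genes in these comparisons. The mouse Atf1 probe set gave 1189, 1063 and 933 on the 3 arrays in the order control, high doxycycline and tumor, and that of Ewsr1 gave 1660, 1650 and 1624. Whether either detects the fusion transcript is unknown here, so they check no label. Fos, named in the title of the study, had 1114, 1234 and 302.

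Promoter sequence from RefSeq (GRCm38.p6) was matched for 8 of the 10 genes, Adipoq, Plin1, Pparg, Cd36, Cidec, Lep, Cfd and Retn, in 11 windows of the 250 bases before an annotated start. Windows of Cd36 and Adipoq are shown because among the matched genes with a probe set Cd36 had the largest measured difference between arrays, while Adipoq was nearly level. Both read 5′ to 3′ on the gene's strand, Cd36 at chr5:17835897-17836146 on the minus strand and Adipoq at chr16:23146286-23146535 on the plus strand. Capitals mark matches on either strand to the nuclear receptor half-site AGGTCA, the cAMP response element half-site TGACG, the CCAAT box or the TATA box TATAAA.
Cd36: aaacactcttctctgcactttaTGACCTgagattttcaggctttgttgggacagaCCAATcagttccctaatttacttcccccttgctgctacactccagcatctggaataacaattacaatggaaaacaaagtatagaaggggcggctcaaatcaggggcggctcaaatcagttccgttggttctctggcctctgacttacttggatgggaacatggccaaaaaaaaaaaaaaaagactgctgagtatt
Adipoq: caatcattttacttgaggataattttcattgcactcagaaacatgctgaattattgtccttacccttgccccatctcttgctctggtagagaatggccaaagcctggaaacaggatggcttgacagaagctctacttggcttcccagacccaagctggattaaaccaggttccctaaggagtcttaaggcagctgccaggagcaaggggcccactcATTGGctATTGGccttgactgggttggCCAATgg
The Cd36 window held 1 match to AGGTCA on the opposite strand and 1 to CCAAT. The Adipoq window held 3 matches to CCAAT, the most upstream 34 bases before the start, and none to the other letters. Over the 11 windows, AGGTCA stood in 3, of Cd36 and Pparg, against 14.0% of 32851 windows of all genes. CCAAT stood in 4 (33.8% of all windows), TATAAA in 1, of Pparg (12.4%), and TGACG in 0 (17.8%). These are matches of letters in short windows, none of which overlapped, and they describe no binding.

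The genes of fatty acid supply had the largest measured differences of the list. Fabp4 had an intensity of 847 on control, 87.6 on the high doxycycline array and 143 on tumor. On control 77.9% of all probe sets were dimmer than Fabp4, against 24.0% for high doxycycline and 39.6% for tumor. On the scale of log2(intensity + 1), which is used for all differences and folds here and understates changes of dim genes, the log2 difference of Fabp4 from control was -3.26 on high doxycycline and -2.56 on tumor (5.91-fold). Its high doxycycline value stood at percentile 83.8 of 1027 olfactory receptor genes, which serve here as a level of signal from genes not known to be used in such cells. Against percentile 95 of those genes, 128 on that array, Fabp4 was at least 6.56-fold brighter on control. Between tumor and high doxycycline its log2 difference was 0.70, or at least 1.11-fold brighter on tumor against the same level.

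Lpl had an intensity of 314 on control, 97.5 on the high doxycycline array and 98.0 on tumor. The control array stood apart and the other two lay within 1.01-fold. The log2 differences from control were -1.68 and -1.67. The values on high doxycycline and tumor stood at percentiles 87.9 and 88.9 of the olfactory receptor genes, and against percentile 95 (128 and 124) Lpl was at least 2.44-fold and at least 2.52-fold brighter on control.

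Cd36 had 214 on control, 44.9 on the high doxycycline array and 47.8 on tumor. Its value on control lay below that array's median of 250.0, and its values on the other two lay below the median of the olfactory receptor genes there (50.3 and 49.6). The log2 differences from control were -2.23 and -2.14. Against percentile 95 of the olfactory receptor genes, Cd36 was at least 1.66-fold brighter on control than on high doxycycline and at least 1.72-fold brighter than on tumor, so that a 2-fold difference is not shown above that level.

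The regulator and the lipid droplet genes lay closer together. Pparg had 226 on control, 133 on the high doxycycline array and 143 on tumor, with log2 differences from control of -0.76 and -0.65. Plin1 had 260 on control, 206 on the high doxycycline array and 176 on tumor (-0.33 and -0.55). Its difference for high doxycycline was smaller than the median disagreement of 0.37 between probe sets of a gene. Cidec had 212 on control and the identical value of 185 on the other two arrays (-0.19 in both comparisons). Plin1 and Cidec lay above percentile 95 of the olfactory receptor genes on all 3 arrays, a level of 148 on control, 128 on the high doxycycline array and 124 on tumor.

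The hormone genes split. Adipoq had 56.9 on control and the same 56.3 on high doxycycline and tumor, and Lep had 66.6 on all 3 arrays. Both stood inside the olfactory receptor distribution, Adipoq at percentile 54.7 on control, 58.9 on the high doxycycline array and 60.6 on tumor, and Lep at 65.4, 68.7 and 70.4. No signal of these defining fat cell hormones above that level was detectable on any of the 3 arrays. Retn, which encodes resistin, had 245 on control, 150 on the high doxycycline array and 139 on tumor (log2 differences from control of -0.70 and -0.81). Its control value stood at percentile 99.0 of the olfactory receptor genes.

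**Figure D1:**
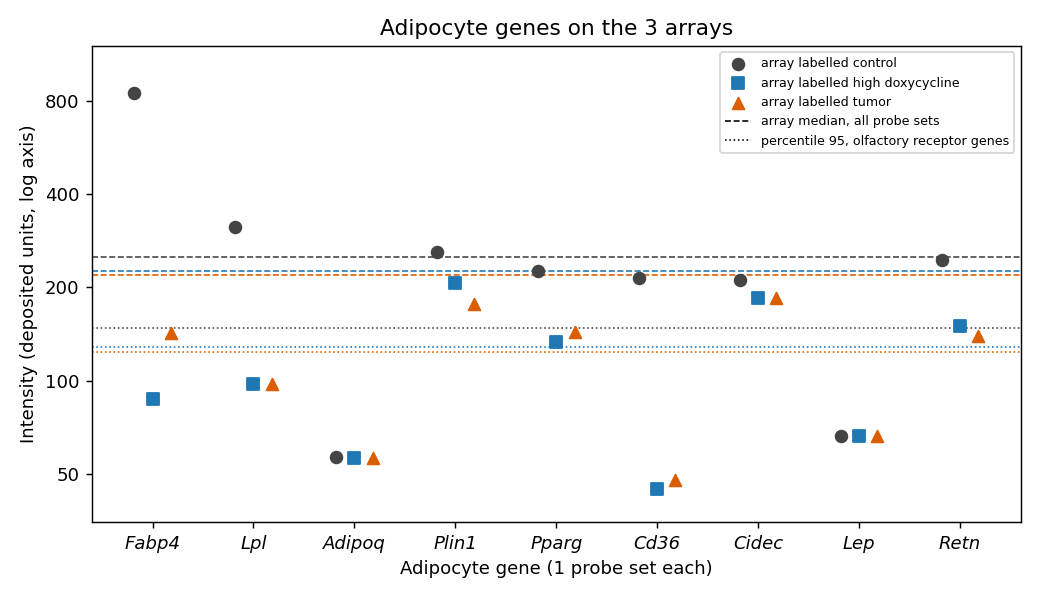
Intensity of each adipocyte gene (log axis) on the arrays labelled control (circles), high doxycycline (squares) and tumor (triangles), 1 point per array; dashed lines are array medians over all probe sets and dotted lines percentile 95 of the olfactory receptor genes, in the colour of the array. Fabp4 on control, at 847, stands above all other points, and Adipoq and Lep stay between 56.3 and 66.6 on every array.

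Of the 9 measured genes, 8 were highest on control, and Lep was level. The same held for 42.5% of all genes. With the arrays shifted to a common median the count was 7, without Adipoq, against 28.0% of all genes. Under quantile normalization it was 6, without Adipoq and Cidec, against 39.8%. Identical values on high doxycycline and tumor were held by 3 of the 9 (Adipoq, Cidec and Lep), near the 34.1% of all genes. The labels do not say why values are identical.

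Without a filter on brightness, 3 of the 9 genes (Fabp4, Cd36 and Lpl) were at least 2-fold dimmer on high doxycycline than on control, where 5.56% of all genes were, and the same 3 were at least 2-fold dimmer on tumor than on control, where 6.82% of all genes were. In neither comparison was any of the 9 at least 2-fold brighter, against 10.6% of all genes on high doxycycline and 11.3% on tumor. Both comparisons use the array labelled control. The median of the 9 log2 differences was -0.70 for high doxycycline against control, where that of all genes was 0, and -0.65 for tumor against control, where that of all genes was -0.0039. With dim values raised to percentile 95 of the olfactory receptor genes, Fabp4 and Lpl remained past 2-fold in both comparisons and Cd36 did not. A brightness filter was also set, at the array median of the brighter array of a pair. It was passed by 3 of the 9 genes, Fabp4, Lpl and Plin1, each through control alone, with Plin1 (260) just above the control median of 250.0 and Retn (245) just below it. Among these 3, 2 were at least 2-fold dimmer on high doxycycline (8.46% of 11934 genes) and 2 on tumor (10.2% of 12011), and 0 were brighter (17.5% and 18.6%). A gene that is bright on control alone had to differ, so nothing is read from these counts.

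Between tumor and high doxycycline none of the 9 genes passed the filter and none differed by 2-fold without it, where 0.913% of all genes were brighter and 1.15% dimmer on tumor. The log2 differences ran from -0.23 for Plin1 to 0.70 for Fabp4. The differences of Plin1, Retn (-0.11) and Pparg (0.11), whose values lay above percentile 95 of the olfactory receptor genes on both arrays, were larger than the median disagreement of 0.055 in that pair. That median comes from probe sets that passed the filter, which none of the 9 genes did, so it does not measure their error. Under quantile normalization the difference of Retn was -0.050. Fabp4 lay above percentile 95 of the olfactory receptor genes on tumor alone, and Lpl, Cd36, Adipoq and Lep lay below it on both arrays.

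**Figure D2:**
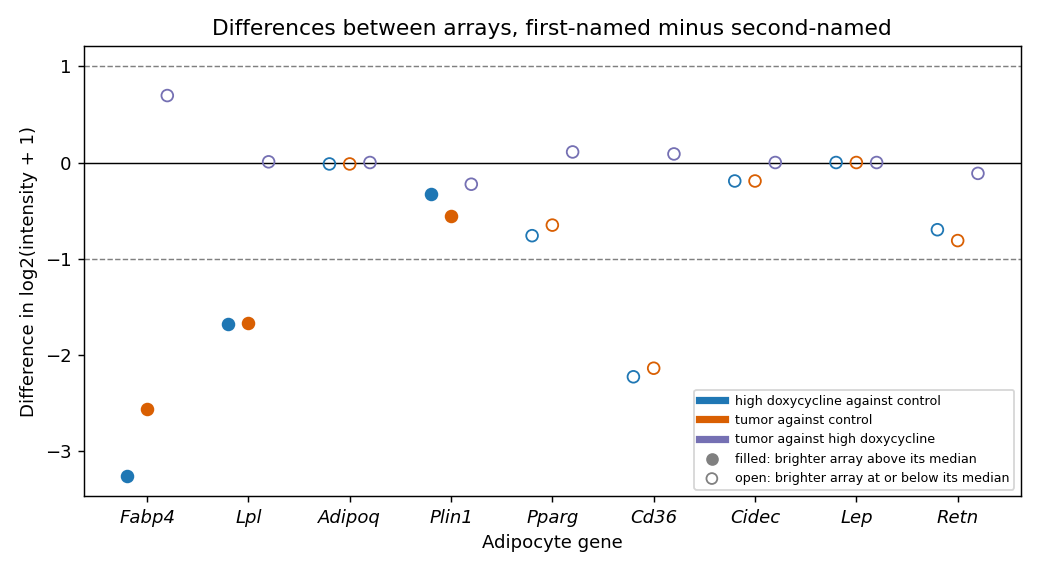
Differences in log2(intensity + 1) of each adipocyte gene for the 3 pairs of arrays, first-named minus second-named; filled points have their brighter array above that array's median, open points do not, and dashed lines mark 2-fold. Fabp4, Lpl and Cd36 lie below -1 in both comparisons with control, and all differences between tumor and high doxycycline lie between -0.23 and 0.70.

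Genes whose 3 log2 values, centred on their mean, lay closest to those of Fabp4 were Igf1, a growth factor gene (distance 0.13), Scara5, a scavenger receptor gene (0.15), Pdk4, a pyruvate dehydrogenase kinase gene (0.17), the interleukin receptor gene Il4ra (0.28) and Gpr50 (0.30). The distance is Euclidean, over 3 arrays and 12111 genes above the median on at least 1 array. Igf1 had 1434, 160.0 and 229 on control, high doxycycline and tumor. Only 3 genes lay within 0.25 of Fabp4, whereas 189 lay within 0.25 of Lpl. Closest to Lpl were Myf6 (0.022), a muscle transcription factor gene, Tnn (0.026), Ms4a8a (0.038), Zeb2 (0.047) and Dapk1 (0.051). Within the list, Cd36 was nearest to both, at 0.73 from Fabp4 and 0.42 from Lpl.

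Most cell type markers were at least 2-fold dimmer than on control in both comparisons, as were Fabp4, Lpl and Cd36. Plin1, Pparg, Cidec, Adipoq, Lep and Retn were not. Of 12 bright macrophage genes, 11 were at least 2-fold dimmer on high doxycycline and 12 on tumor than on control, among them the lysozyme gene Lyz2 (3932, 68.0 and 64.8 on control, high doxycycline and tumor) and the mannose receptor gene Mrc1 (3175, 78.9 and 74.3). Of 9 bright endothelial genes 8 were dimmer in each comparison, with the vascular cadherin gene Cdh5 at 2098, 135 and 106 and Pecam1 at 1101, 119 and 105. In the skeletal muscle list 9 of 10 were dimmer in each, with the muscle creatine kinase gene Ckm at 4795, 238 and 210. In the fibroblast and matrix list 10 of 10 were dimmer on high doxycycline and 9 of 10 on tumor. Of all bright genes 8.46% and 10.2% were dimmer. Most macrophage and endothelial genes, and part of the muscle and matrix genes, passed the filter through control alone and so had to be dimmer elsewhere. Without the filter the counts were the same, with endothelium at 8 of 10. Of all genes 5.56% and 6.82% were then dimmer. The median log2 differences of these lists ran from -4.29 to -2.15 for high doxycycline against control and from -4.13 to -2.23 for tumor against control. The part of these cells in the values of Fabp4, Lpl and Cd36 was not tested. In bulk RNA, fewer cells of a type and less RNA per cell cannot be told apart.

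Other genes of fat biology, in 7 lists of 84 entries with 80 measured, went in both directions. Of 69 bright genes, 12 were at least 2-fold dimmer on high doxycycline than on control and 10 brighter, which is 17.4% and 14.5% where all genes gave 8.46% and 17.5%. Of 71 bright on tumor or control, 17 were dimmer on tumor and 13 brighter (23.9% and 18.3%, against 10.2% and 18.6% of all genes). Between tumor and high doxycycline 2 of 59 were dimmer on tumor and 6 brighter (3.39% and 10.2%, against 1.94% and 1.60%). Their median log2 differences were -0.054, 0 and 0. Several of the dimmer genes passed the filter against control through control alone, among them Cebpa, Gpihbp1, Angptl4, Rarres2, Lepr, Pdgfrb, Cd34 and Cox8b. Such genes had to be dimmer on the other array. The shares of bright genes dimmer than control, here and in the single lists below, are therefore not read as a result.

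Among 10 bright regulators of fat cell differentiation, 2 were at least 2-fold dimmer on high doxycycline and 3 on tumor than on control, and none was 2-fold brighter. Of all bright genes 8.46% and 10.2% were dimmer, and 17.5% and 18.6% brighter. Without the filter the same 2 and 3 of 11 regulators were dimmer, where 5.56% and 6.82% of all genes were. Under quantile normalization 4 regulators were dimmer in each comparison, and under a common median 1 was brighter on high doxycycline. Ebf1 was brighter by less than 2-fold, with 3285 on control, 6065 on the high doxycycline array and 5687 on tumor. Cebpa, a partner of Pparg in differentiation, had 466, 185 and 188 on control, high doxycycline and tumor. The Krüppel-like factor gene Klf15 had 682, 256 and 232, and Cebpb, which acts early in differentiation, had 1293, 693 and 522. The median log2 differences from control were -0.42 and -0.64.

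Genes of fatty acid uptake and binding differed in opposite directions. Gpihbp1, which anchors lipoprotein lipase to the capillary wall, had 467 on control, 144 on the high doxycycline array and 134 on tumor. Angptl4, an inhibitor of lipoprotein lipase, had 520, 159 and 172. Both were dim where Lpl was dim. Fabp5, a relative of Fabp4, went the other way, with 826 on control, 2625 on the high doxycycline array and 5599 on tumor, so that it was 3.17-fold brighter on high doxycycline and 6.77-fold on tumor where Fabp4 was dimmer. Lmf1, a maturation factor of lipoprotein lipase, was 2.14-fold brighter on high doxycycline than on control. Of the 10 genes of this list, all bright, 2 were dimmer and 2 brighter on high doxycycline (median -0.22), and 2 dimmer and 1 brighter on tumor (median 0). All bright genes gave 8.46% dimmer and 17.5% brighter on high doxycycline, and 10.2% and 18.6% on tumor. For high doxycycline the median was 0.13 over the 6 genes above percentile 75 of brightness.

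Of 13 bright fat and triglyceride synthesis genes, 4 were brighter and 1 dimmer on high doxycycline than on control, and of 14 bright genes 6 were brighter and 1 dimmer on tumor. Of all bright genes 17.5% were brighter and 8.46% dimmer on high doxycycline, and 18.6% and 10.2% on tumor. The median of the list was 0.45 for high doxycycline and 0.59 for tumor, but 0 and 0.25 without the filter and 0.16 and 0.41 under quantile normalization. Elovl6, a fatty acid elongase gene, had 686, 3062 and 2868, and the malic enzyme gene Me1 had 541, 1788 and 1667. Gpd1, which makes glycerol phosphate for triglyceride, had 369, 906 and 2247. Aqp7, the glycerol channel of fat cells, had 127 on control and high doxycycline and 286 on tumor. The phosphatidate phosphatase gene Lpin1 was 2.16-fold dimmer on high doxycycline than on control.

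None of 11 bright lipid droplet and lipolysis genes differed from control by 2-fold on high doxycycline, although Plin4 (1.87-fold dimmer) and Pnpla2 (1.90-fold dimmer) came near, and 2 were past 2-fold under quantile normalization. On tumor Mgll, a monoglyceride lipase gene, was 2.01-fold brighter than on control, and it fell short of 2-fold under quantile normalization and with a pseudocount of 16 or 64. Between tumor and high doxycycline, 2 of 9 bright genes differed. Plin4, a perilipin gene, had 834 on control, 447 on the high doxycycline array and 1333 on tumor, and Pnpla2, the first lipase of stored triglyceride, had 1930, 1016 and 2569. Plin1 did not share this pattern, with 206 on high doxycycline and 176 on tumor.

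In the list of hormones and receptors of fat cells, the leptin receptor gene Lepr had 569 on control, 65.9 on the high doxycycline array and 48.9 on tumor, while Lep was level on all 3. The chemerin gene Rarres2 had 1003, 172 and 191, and Nampt went the other way, with 563, 1667 and 2452. The adiponectin receptor gene Adipor2 had 672, 1288 and 1568. Of 10 bright genes, 2 were dimmer and 1 brighter on high doxycycline than on control, where all bright genes gave 8.46% and 17.5%. On tumor 3 were dimmer and 2 brighter, where all bright genes gave 10.2% and 18.6%. For tumor against control the median was -0.070, and 0.12 after a shift to a common median.

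Bright preadipocyte genes included 3 of 7 dimmer on high doxycycline and 4 of 8 dimmer on tumor than on control (8.46% and 10.2% of all bright genes). Without the filter it was 3 of 9 and 5 of 9 (5.56% and 6.82% of all genes). The bright ones were the platelet-derived growth factor receptor genes Pdgfra (1102, 253 and 360) and Pdgfrb (1100, 169 and 187), the progenitor marker gene Cd34 (668, 118 and 106) and, on tumor alone, the preadipocyte factor gene Dlk1 (1159, 798 and 508). Pdgfrb and Cd34 passed the filter through control alone. Gata3, a factor that restrains fat cell differentiation, was brighter, with 252, 1367 and 2076.

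The widest differences of the fat lists between tumor and high doxycycline were those of Ucp1 and Cidea, in the brown and beige fat list. In that pair the list held differences in both directions around a median near level. Of its 6 bright genes 2 were dimmer and 1 brighter on tumor (1.94% and 1.6% of all bright genes). Its median was -0.077, and -0.013 over all 10 genes. Against control, 2 of 8 bright genes were dimmer and 2 brighter on high doxycycline (8.46% and 17.5% of all bright genes). On tumor 4 of 8 were dimmer than on control and 2 brighter (10.2% and 18.6%). The medians against control were 0.36 on high doxycycline and -0.51 on tumor, and 0.15 and -0.17 over all 10 genes. Ucp1, the uncoupling protein of brown fat mitochondria, had 306 on control, 2685 on the high doxycycline array and 150 on tumor, and was 17.8-fold dimmer on tumor than on high doxycycline. Cidea, a droplet protein related to Cidec, had 2569, 3181 and 579 and was 5.48-fold dimmer on tumor, whereas Cidec had the same value on both arrays. Cox7a1, a respiratory chain subunit, went the other way with 519, 878 and 2098. The deiodinase gene Dio2 had 266, 894 and 803, and the muscle and brown fat subunit gene Cox8b had 836, 161 and 152.

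**Figure D3:**
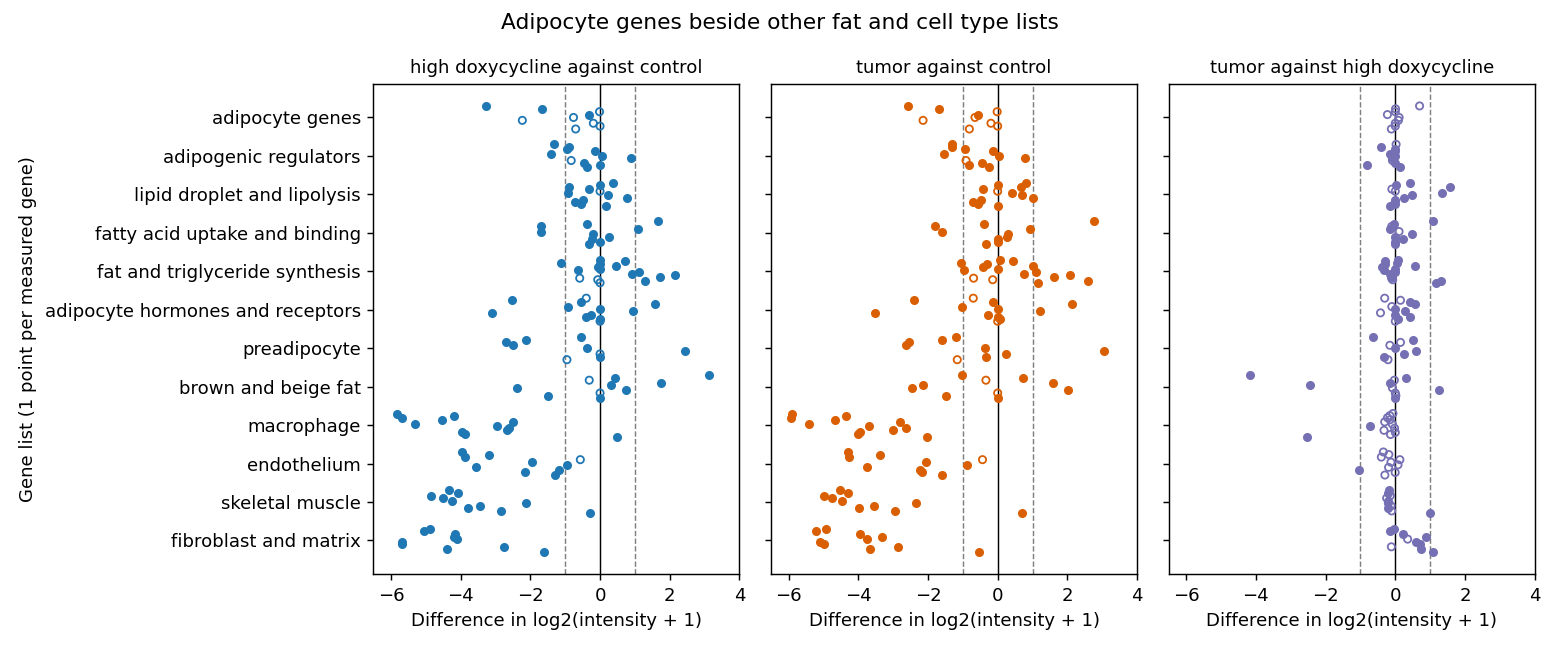
Differences in log2(intensity + 1) of single genes in the adipocyte list, 7 further fat lists and 4 cell type lists, 1 panel per pair of arrays, first-named minus second-named; filled points have their brighter array above its median, open points do not, and dashed lines mark 2-fold. The cell type lists lie far to the left in both comparisons with control (medians from -4.29 to -2.15), the fat lists spread to both sides, and Ucp1 (-4.16) and Cidea (-2.45) are the outlying fat points for tumor against high doxycycline.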

How the data were processed

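Biotin-labelled RNA of 3 samples was measured on MoGene-1_0-st-v1 arrays of Affymetrix, per the labels. The authors deposited 1 intensity per probe set and array, not on a log scale as judged from the values. Background correction, probe summary and normalization are not given in the sources used here. Of 28856 probe sets, 21789 had 1 gene symbol in the platform annotation, 1621 several and 5446 none, and only the first kind was used. Where a gene had several probe sets, that of the highest mean intensity was taken. Differences were taken between log2(intensity + 1) values, and counts take a size of at least 1. A gene was bright where the brighter array of a pair lay above its median over all probe sets. Intensity is not comparable between probe sets as transcript number.

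Named genes were all members, up to 4 bright genes per list with the largest 2-fold differences in each comparison, and the 5 nearest profiles of members that were bright and 2-fold different. Dlk1 and Ebf1 are named beyond this rule, after their values were seen. Members and lists were chosen with earlier results of these data known. The calling step was tested on simulated data, with changes planted only in genes well above the control median. Of the members only Fabp4 was that bright, so the simulation says nothing about calls on dim genes. Python 3.11.15, pandas 2.3.3 and numpy 2.4.6 were used.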

Additional observations from a re-analysis of the deposited data

How the results depend on the processing

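The alternatives were a shift to a common median (which adds 0.14 to differences of high doxycycline from control, 0.19 to those of tumor from control and 0.044 to those between tumor and high doxycycline), quantile normalization, 3 other brightness filters, the mean of a gene's probe sets, only genes that have 1 probe set, and a pseudocount of 16 or 64. The difference of a single member was taken whether or not it passed a filter, and each measured member has 1 probe set. The filters and the choices among probe sets therefore could not change it. Under the settings that could, the shift, quantile normalization and the pseudocounts, Fabp4, Lpl and Cd36 stayed at least 2-fold dimmer than control. With the main setting included, their log2 differences ran from -3.38 to -2.59, -1.68 to -1.23 and -2.23 to -1.35 on high doxycycline. On tumor they ran from -2.61 to -2.14, -1.67 to -1.22 and -2.14 to -1.31. The sign changed for Adipoq in both comparisons (up to 0.12 and 0.17) and for Cidec on tumor (up to 0.036). The median of the members that passed the filter, -1.68 for high doxycycline and -1.67 for tumor, was -0.70 and -0.65 with no filter (9 genes), -0.76 and -0.81 above percentile 95 of olfactory receptor genes (7 genes), -3.26 and -2.56 above percentile 75 (Fabp4 alone, so that 1 gene was counted as dimmer in each) and -1.23 and -1.22 with a pseudocount of 64. In the first 3 of these another number of genes enters. An alternative added after seeing the data raised dim values to percentile 95 of the olfactory receptor genes. It gave -1.29 for high doxycycline and -1.33 for tumor over the same 3 genes, and Cd36 was then -0.73 and -0.78, short of 2-fold. Over the further lists, the median of hormones and receptors for tumor against control became 0.12 under a common median, and that of fatty acid uptake for high doxycycline against control 0.13 above percentile 75; the cause was not tested. No paired analysis was possible because each group has 1 array. With 1 array per group and members mostly below the array medians, signal over background limits the folds of Fabp4, Lpl, Cd36, Adipoq and Lep.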

Other observations

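Single genes of the cell type lists differed from most of their list, of which Mb, Tek and Cldn5 were chosen after their values were seen. Cd14, a lipopolysaccharide co-receptor gene listed with the macrophage genes, had an intensity of 650 on the array labelled control, 914 on high doxycycline and 158 on tumor, and was 5.75-fold dimmer on tumor than on high doxycycline. Mb, the myoglobin gene, had 464, 378 and 754, and was the 1 muscle gene of 10 that was not 2-fold dimmer than control in either comparison. In the endothelial list Tek (240, 162 and 178) and Cldn5 (399, 205 and 216) were dimmer than on control by less than 2-fold. Col6a1, a collagen gene, had 1798, 584 and 1249, and was the 1 matrix gene of 10 that was not 2-fold dimmer on tumor than on control.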
